A study of Mus musculus with 6 samples.

Results

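The first 50 Mb of mouse chromosome 8 were examined library by library in an assay of open chromatin. Of the 170733 consensus peaks of the whole genome whose mean over the 6 libraries reached 10 normalized reads, 2537 had their midpoint in this interval. Peaks were chosen by position and mean level, but the interval was proposed because GFI1-KD libraries were known to differ there. The differences between each GFI1-KD library and GFI1-KI are therefore given as descriptions, with no test. Cells were granulocyte-monocyte progenitors (GMPs) sorted from bone marrow of untreated C57BL/6 mice, with 3 libraries per genotype. Mice of the GFI1 KI/KI genotype, named KI1 to KI3 here, carried human GFI1 where the mouse gene would be. GFI1 KD/KD mice, KD1 to KD3, expressed human GFI1 at 10-20%, again in place of mouse Gfi1, so that neither group had the mouse protein. Age is not in the labels, nor is whether each library came from its own animal, so the spread between libraries may in part be technical.

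ATAC-seq uses the Tn5 transposase to cut and tag accessible DNA, so a peak marks a promoter, an enhancer or another site where nucleosomes are open. GFI1 is a zinc-finger repressor that recruits histone-modifying enzymes and steers GMPs towards neutrophils. The interval holds genes of several kinds: receptors of innate immunity such as Msr1 and the Cd209 family, the collagen IV pair Col4a1 and Col4a2, the growth factor gene Nrg1, the helicase gene Wrn and the defensin clusters.

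Between 16022763 and 27741446 reads lay in peaks per library, and the interval took 1.42% to 1.43% of them in the GFI1-KI libraries, 1.40% in KD1 and 1.43% in KD2 and in KD3. KD1 had 0 reads on chromosome Y and KI2 had 1, while the other 4 libraries had 499 to 865. Of 8 GMP markers, all but Fcgr3 and Prtn3 had a peak in a promoter window, with summed levels of 6290 to 6556 normalized reads in the GFI1-KI libraries and 5788 to 6241 in the others. Such a peak was present for 1 of 4 mature macrophage markers (Mertk, 317 to 334 against 278 to 347; no window was read for Adgre1) and none of the 4 T and NK cell markers. Their part in the differences below was not tested.

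Promoter peaks here are peaks over a RefSeq promoter window. Such windows were found for 117 of the 248 protein-coding genes with a peak, so starts of other genes are not counted. The promoter peaks of the interval defined in this way stayed within 4-fold with 1 exception. To set that exception beside others, 4 windows (GRCm38.p6, the mm10 build) with a peak over them are shown. Gm33326, a long non-coding RNA gene, was the only one of 103 promoter peaks of the interval past 4-fold in any GFI1-KD library, with 18.02, 26.3 and 21.9 normalized reads in KI1 to KI3 and 0, 9.87 and 29.9 in KD1 to KD3. KD1 thus lay below every GFI1-KI library there, KD2 in between and KD3 above them. In KD1, 0.971% of the promoter peaks and 5.96% of the interval's other peaks passed 4-fold, against 0.368% of all tested peaks. Promoter peaks were also stronger, with a median GFI1-KI level of 374.5 normalized reads against 41.3. Whether their level accounts for the lower share was not tested. Col4a1 is shown because 4 of its peaks passed 4-fold while its promoter did not. Tnfsf13b encodes the B cell survival factor BAFF, and Cd209a is a lectin gene of dendritic cells. The promoter peaks of both were higher in all 3 GFI1-KD libraries. They were picked after their values were seen and do not stand for immune genes as a class. The Cd209a peak rested on 14 to 33 reads per library. Each window runs from 250 bases before to 50 bases after the gene's start, on the gene's strand. The windows are chr8:12466895-12467194 (minus strand) for Gm33326, chr8:11312777-11313076 (minus) for Col4a1, chr8:10006383-10006682 (plus) for Tnfsf13b and chr8:3748935-3749234 (minus) for Cd209a. Capitals mark AAATCA, read on either strand, letters that hold the core of GFI1 sites.
Gm33326: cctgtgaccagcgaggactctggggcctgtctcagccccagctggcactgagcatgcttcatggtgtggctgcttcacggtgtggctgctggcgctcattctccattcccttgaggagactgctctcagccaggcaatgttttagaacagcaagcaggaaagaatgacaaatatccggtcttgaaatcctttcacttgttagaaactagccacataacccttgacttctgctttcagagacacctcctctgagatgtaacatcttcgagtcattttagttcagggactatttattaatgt
Col4a1: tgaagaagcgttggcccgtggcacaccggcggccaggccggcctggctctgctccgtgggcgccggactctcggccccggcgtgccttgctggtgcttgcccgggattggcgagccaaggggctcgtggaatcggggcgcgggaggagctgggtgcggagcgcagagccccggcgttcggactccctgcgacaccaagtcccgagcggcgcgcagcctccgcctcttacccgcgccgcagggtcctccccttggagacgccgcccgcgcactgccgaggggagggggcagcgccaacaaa
Tnfsf13b: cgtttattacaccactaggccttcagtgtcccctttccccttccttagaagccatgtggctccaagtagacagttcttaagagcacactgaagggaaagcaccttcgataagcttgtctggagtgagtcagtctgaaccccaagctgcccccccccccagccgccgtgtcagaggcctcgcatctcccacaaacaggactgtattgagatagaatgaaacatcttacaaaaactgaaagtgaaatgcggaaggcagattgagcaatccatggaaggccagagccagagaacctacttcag
Cd209a: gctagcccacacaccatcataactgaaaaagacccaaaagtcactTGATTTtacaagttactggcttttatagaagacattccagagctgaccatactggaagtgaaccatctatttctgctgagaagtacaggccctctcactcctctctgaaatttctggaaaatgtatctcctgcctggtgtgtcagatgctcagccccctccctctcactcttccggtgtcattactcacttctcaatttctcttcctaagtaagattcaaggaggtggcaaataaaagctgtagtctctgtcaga

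This motif was found once, on the other strand, in the Cd209a window and in none of the other windows shown. The Cd209a peak, chr8:3748858-3749142, covers 208 of that window's 300 bases, and the motif lies outside the peak. The letters GAGGAA, a core of sites read by the myeloid factor PU.1 and likewise searched on both strands, were in none of the 4. The motifs share no hit, since only 1 was found. Over all 32851 promoter windows of this length, 14.0% held the first motif and 28.3% the second. The peak over the Tnfsf13b window had 344.5, 242.8 and 253.0 normalized reads in KI1 to KI3 and 487.9, 413.4 and 444.6 in KD1 to KD3, so the genotypes did not overlap. Over the Cd209a window these values were 15.8, 14.9 and 17.4 against 35.3, 37.0 and 22.2, again with no overlap. At the Col4a1 window the peak had 235, 225 and 224 normalized reads against 182, 141 and 202, so all GFI1-KD libraries were lower, and none by 4-fold.

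KD1 differed from GFI1-KI at many more of these peaks than KD2 or KD3 did. A difference is given on the scale of log2(normalized reads + 1), for 1 library against the mean of the GFI1-KI libraries, and 4-fold means 2 on that scale. In KD1, 146 of the 2537 peaks were past 4-fold, which is 5.75%, against 0.368% of all tested peaks in the same library. Of these 46 were higher (background 0.105%) and 100 lower (0.263%). KD2 had 35 such peaks (1.38% against 0.534%), 26 of them higher (background 0.0621%) and 9 lower (0.471%). KD3 had 31 (1.22% against 0.358%), 21 of them higher (background 0.0609%) and 10 lower (0.298%). Set against the mean of the other GFI1-KI libraries, KI1 had 3 such peaks (0.0674% of all tested peaks), KI2 had 0 (0.0527%) and KI3 had 1 (0.0621%). Most of these peaks were lower in KD1, while most of those in KD2 and in KD3 were higher. All 3 comparisons share the GFI1-KI libraries.

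**Figure D1:**
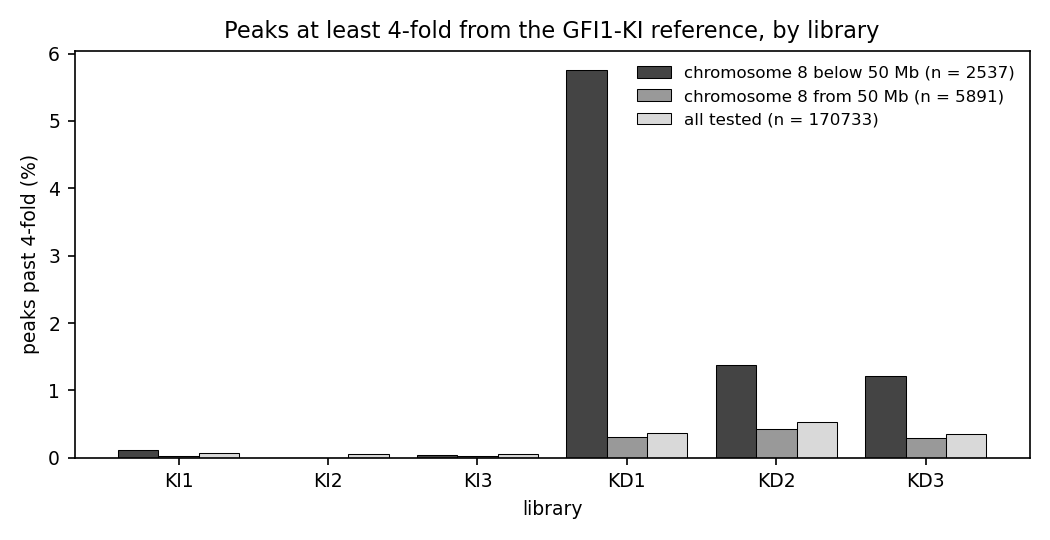
The share of peaks (%, vertical axis) at least 4-fold from the GFI1-KI reference in each library (horizontal axis), for chromosome 8 below 50 Mb, chromosome 8 from 50 Mb and all tested peaks. KD1 reached 5.75% in the proximal interval, and no other bar passed 1.38%.

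The rest of the chromosome was not like this. From 50 Mb on, 18 of 5891 peaks were past 4-fold in KD1 (0.306%), 25 in KD2 (0.424%) and 17 in KD3 (0.289%), each below that library's share over all tested peaks. Even within the interval, most peaks stayed near the GFI1-KI level. The median difference of its peaks was -0.09 in KD1, -0.10 in KD2 and 0.03 in KD3 on the log2 scale. Within 1.5-fold of the GFI1-KI mean lay 65.8% of them in KD1, 72.9% in KD2 and 76.7% in KD3, against 79.6%, 80.2% and 82.2% of all tested peaks. Past 2-fold were 450 peaks in KD1 (17.7%, against 5.71% of all tested), 283 in KD2 (11.2% against 5.73%) and 205 in KD3 (8.08% against 4.83%). With both genotypes compared as groups by limma, 463 of the 2537 peaks were called at an adjusted p threshold of 0.05 (18.2%, against 10.5% of all tested peaks), 230 of them higher in GFI1-KD (background 4.99%) and 233 lower (5.48%). By other scalings and tools the split leaned to higher peaks, with 284 higher and 210 lower at equal library totals and 181 and 96 by DESeq2. Without KI2 the limma count was 248 (9.78%, against 4.24% of all tested peaks in that fit) and without KI3 it was 249 (9.81% against 4.10%). Without KD1 it was 354 (13.95% against 9.97%).

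Across the genome, 484 windows of 5 Mb held at least 50 tested peaks. The 5 windows with the highest share of peaks past 4-fold in KD1 all lay in the proximal interval. They started at 35 Mb (15% of 240 peaks), 5 Mb (14.2% of 106), 30 Mb (12.9% of 348), 15 Mb (7.53% of 93) and 0 Mb (6.33% of 158). The window starting at 35 Mb ranked 4 in KD2 (3.75%) and 4 in KD3 (5%), and the window starting at 30 Mb ranked 7 (2.87%) and 11 (2.30%). The windows starting at 5, 15 and 0 Mb ranked 91 (0.943%), 12 (2.15%) and 46 (1.27%) in KD2, and 9 (2.83%), 42 (1.08%) and 103 (0.633%) in KD3. Between 25 and 30 Mb, by contrast, 0 of 364 peaks passed 4-fold in KD1.

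In steps of 1 Mb, the differences of KD1 came in runs with gaps between them. A step was called dense where it held at least 10 peaks and its share past 4-fold was at least 5 times that of the same library over all tested peaks. KD1 had 24 dense steps among the 31 with at least 10 peaks, KD2 had 6 and KD3 had 7. A single peak sufficed for some, and with at least 2 peaks past 4-fold required, 19, 4 and 4 remained. By the same rule KI1 had 3 dense steps, KI2 had 0 and KI3 had 1, each resting on 1 peak.

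The step from 33 Mb, with Wrn, Gsr, Gtf2e2 and Rbpms, held the most: 25 of 142 peaks passed 4-fold in KD1, 23 of them lower. KD2 had 1 and KD3 had 0 there. The next steps held 15 of 131 (34 Mb), 17 of 123 (35 Mb) and 10 of 86 (36 Mb) in KD1. In the step from 39 Mb, around Msr1, all 5 of the KD1 peaks past 4-fold among 19 were higher. None passed in KD1 among 111 peaks from 10 Mb, 152 from 13 Mb, 51 from 14 Mb, or 180, 122 and 58 in the steps from 25, 26 and 27 Mb, so that well-filled steps without strong differences lay between the dense ones.

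**Figure D2:**
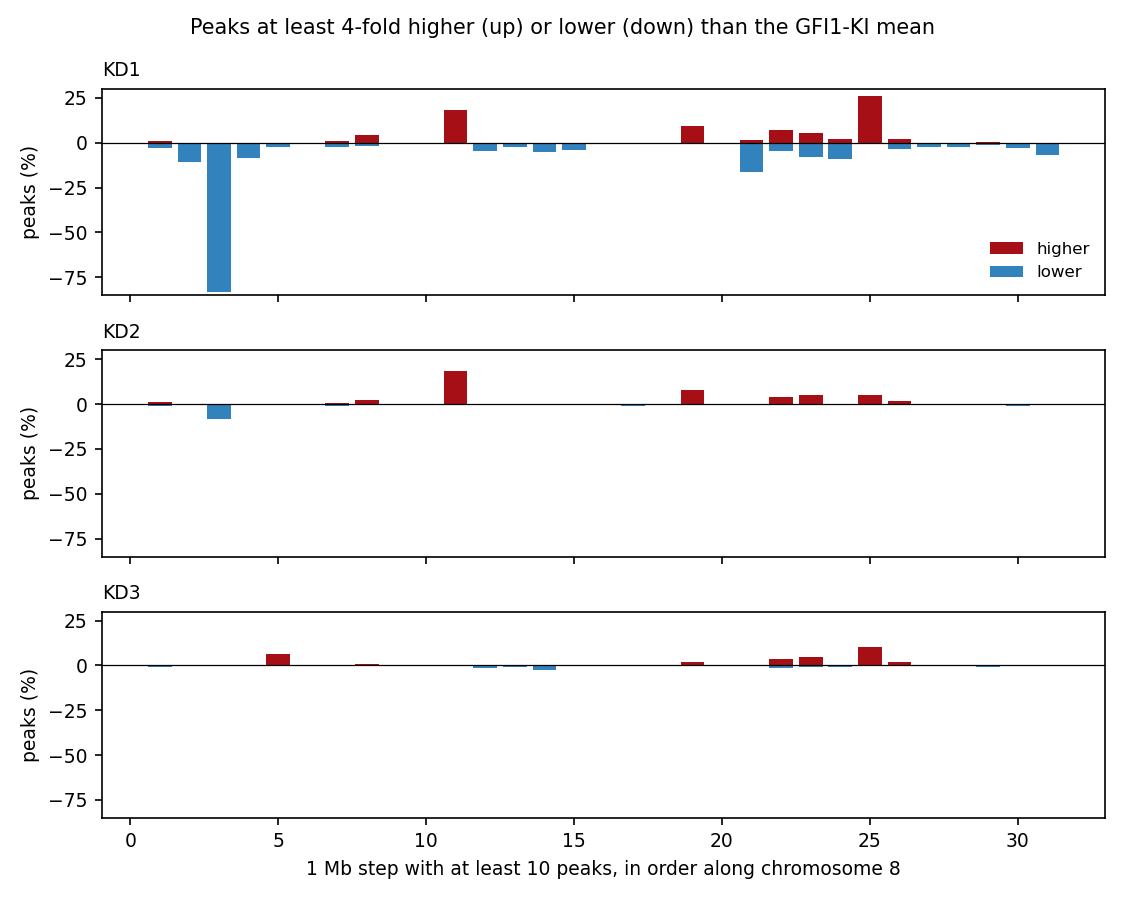
For each 1 Mb step with at least 10 peaks, in order along chromosome 8 (horizontal axis), the share of its peaks (%) at least 4-fold higher (bars up) or lower (bars down) than the GFI1-KI mean, in KD1, KD2 and KD3. The deepest KD1 bar is the step from 6 Mb, where 10 of 12 peaks were lower.

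The step from 6 Mb is a gene-poor stretch with no protein-coding gene within 50 kb of any of its 12 peaks. In KD1, 10 of the 12 were past 4-fold lower (83.3%) and all 12 lay below every GFI1-KI library. Its strongest peak, chr8:6119447-6119859, had 85.6, 82.4 and 68.7 normalized reads in KI1 to KI3 and 2.14, 38.3 and 74.3 in KD1 to KD3. Only KD3 fell within the GFI1-KI range at that peak. Over the 12 peaks the median level was 5.65% of the GFI1-KI mean in KD1, 50.7% in KD2 and 86.4% in KD3. All 12 were below the GFI1-KI range in KD2 as well, while in KD3 6 were below it and 5 within it. No share over all tested peaks was taken for the counts below or within that range, in KD1 either, so they are descriptions. The signal was not lost from the whole step, since chr8:6572385-6572585 had 23.6, 30.7 and 27.2 normalized reads in GFI1-KI and 23.5, 17.3 and 36.6 in KD1 to KD3.

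Some sites were nearly closed in KD1 and open in every GFI1-KI library, or the reverse. A site is called lost where the GFI1-KI mean was at least 40 normalized reads and KD1 at least 8-fold below it, and gained where KD1 had at least 40 and the GFI1-KI mean was at least 8-fold lower. KD1 lost 28 sites of the interval and gained 20, out of 41 and 34 in the whole genome. By the same definition KD2 lost 0 and gained 5 in the interval (58 and 20 in the genome), and KD3 lost 0 and gained 4 (28 and 16). These definitions fix the level of KD1 and of GFI1-KI at the sites, and leave those of KD2 and KD3 free.

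KD2 lay near the middle at most of these sites. At the 28 lost sites its median level was 47.3% of the GFI1-KI mean (quartiles 41.4% and 55.4%), and 23 of the 28 sites lay between 30% and 70%. At the 20 gained sites its median was 51.1% of the KD1 level (quartiles 41.8% and 58.7%). The 3 GFI1-KI libraries had medians of 4.94% to 7.55% of KD1 there, low by definition. The exact Poisson 95% interval of the reads, which covers counting error only, was below 100% of the GFI1-KI mean in KD2 at 27 of the 28 lost sites and held 50% at 22. It was above the GFI1-KI mean in KD2 at all 20 gained sites. These intervals take the GFI1-KI mean as exact, and the sites were chosen for that mean. No share over all tested peaks was taken, so the counts are descriptions.

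The level of KD3 differed with position. Below 31 Mb, a split chosen after its values were seen, the 9 lost sites stood at a median of 101.7% of the GFI1-KI mean in KD3 (range 80.5% to 136.6%), against 50.7% in KD2. From 31 Mb on, the 19 lost sites stood at 51.3% in KD3 (range 29.99% to 88.9%) and 43.7% in KD2. The 7 gained sites below the split were at 9.21% of KD1 in KD3 and 40.1% in KD2, and the 13 from it were at 49.98% and 51.6%. Counting intervals were below 100% in KD3 at 0 of the 9 lost sites below the split and at 17 of the 19 from it. In KD3 they were above the GFI1-KI mean at 2 of 7 and 12 of 13 gained sites. The KD1 sites among all other autosomal peaks, the rest of chromosome 8 included, had other levels. The 11 lost there stood at medians of 13.2% in KD2 and 10.7% in KD3, with 9 of the 11 below 30% in each, and the 14 gained stood at 78.2% and 76.2% of KD1.

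**Figure D3:**
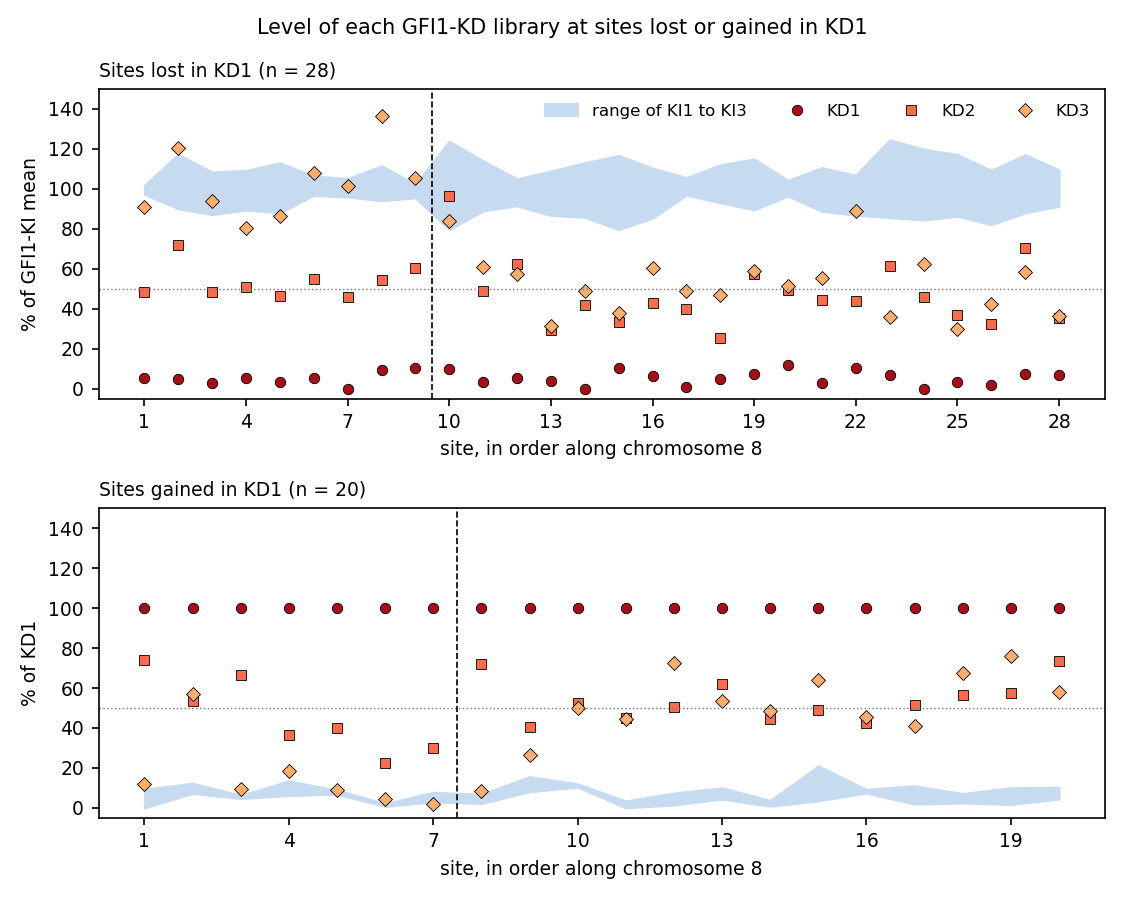
The level of each GFI1-KD library at the 28 lost sites (top, % of the GFI1-KI mean) and the 20 gained sites (bottom, % of KD1), in order along chromosome 8, with the range of KI1 to KI3 shaded, 50% dotted and 31 Mb as the dashed line. KD2 (squares) is mostly near 50% at the lost sites on both sides of the line and at the gained sites right of it. At the 7 gained sites left of the line KD2 scatters from 22.4% to 74.0%, with a median of 40.1%. KD3 (diamonds) is near the shaded band left of the line, apart from 1 gained site, and mostly near 50% right of it.

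Several sites departed from this picture. The gained site chr8:12733638-12733943, 23.1 kb from the lipid flippase gene Atp11a, lay below the split and had 44.4 normalized reads in KD3, 56.8% of KD1. From the split on, the lost site chr8:33186257-33186550, 47.8 kb from Wrn, stayed at 96.2% of the GFI1-KI mean in KD2. The lost site chr8:35823525-35823757 near the tight junction gene Cldn23 stayed at 88.9% in KD3. Within Nrg1 the level of KD3 differed between the gained sites, given here by ascending chromosome position. It was 8.64% of KD1 at chr8:31908251-31908467, 26.4% at chr8:31909697-31910028 and 49.98% at chr8:31929034-31929525.

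A wider set was read in the same way. Of the interval's peaks, 252 were past 2-fold in KD1 with at least 40 normalized reads on the higher side. The median share of the KD1 difference seen in KD2 was 56.6%, and in KD3 it was 46.0%, against 61.6% and 65.5% over 3267 such peaks in the rest of the genome. Below 31 Mb it was 54.6% in KD2 and 27.3% in KD3 (100 peaks), and from there on 57.9% and 52.2% (152 peaks). KD3 was at 49.0% for 17 peaks from 5 to 10 Mb and at 52.8% for 10 peaks from 25 to 30 Mb, so that the lower values below the split came from the windows starting at 0, 10, 15 and 20 Mb (7.77%, 34.0%, 9.05% and 1.78%).

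Among the lost sites, Rbpms, which encodes an RNA-binding protein, held the clearest. The peak chr8:33890972-33891306 inside the gene had 241, 261 and 239 normalized reads in KI1 to KI3 (247 ± 12.2, SD, n = 3) and 2.14, 98.7 and 120.9 in KD1 to KD3. KD1 rested on 2 reads, and all 3 GFI1-KD libraries were below all GFI1-KI libraries. Of 45 peaks assigned to Rbpms, 5 passed 4-fold, and limma called 9 higher and 10 lower (4.99% and 5.48% of all tested peaks). The peak with the smallest p of the chromatin and transcription genes, chr8:33817027-33817809 in Rbpms, had 528, 570 and 561 against 236, 284 and 306, again without overlap.

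Lonrf1, a ubiquitin ligase gene, had a lost site 25.6 kb away at chr8:36274949-36275517. Its values were 136, 109 and 95.9 normalized reads in GFI1-KI and 0, 51.8 and 71.0 in KD1 to KD3. Against a floor of 3 reads in KD1, GFI1-KI was at least 35.4-fold higher, and KD2 and KD3 lay between. The large peak chr8:36248053-36249735 of the same gene moved little, at 1794, 1984 and 1991 against 1442, 1369 and 1440 normalized reads, with no overlap between the genotypes.

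Gsr encodes glutathione reductase, which restores the reduced form of glutathione. Of its 20 peaks 6 were past 4-fold lower in KD1 (0.263% of all tested peaks), and none in KD2 or KD3. At chr8:33664609-33664790 the values were 50.7, 42.9 and 56.6 against 0, 20.98 and 24.4, which sets GFI1-KI at least 15.6-fold above KD1. The site beside a boundary of the gene (start and end were not told apart), chr8:33698211-33698613, had 128, 157 and 166 against 9.63, 64.2 and 90.9. In both, all GFI1-KD libraries lay below GFI1-KI and KD1 was lowest.

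Wrn encodes a helicase that protects the genome and is lost in Werner syndrome. It likewise had 6 peaks of 16 past 4-fold lower in KD1 (0.263% of all tested peaks) and none in KD2 or KD3. Inside the gene, chr8:33377974-33378550 had 220, 187 and 171 normalized reads in GFI1-KI and 6.42, 93.8 and 117.5 in GFI1-KD. Its neighbour Gtf2e2, a subunit gene of the general factor TFIIE, had 4 of 17 past 4-fold, 3 of them lower in KD1. At chr8:33715769-33716013, 15.9 kb from that gene, the values were 30.4, 28.9 and 49.1 against 0, 17.3 and 16.6. No genotype overlap was seen at these sites, and KD2 and KD3 lay between KD1 and GFI1-KI.

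Below 31 Mb the lost sites had KD3 with GFI1-KI. Col4a1 encodes a chain of the basement membrane collagen IV, and its lost site chr8:11208456-11209021 had 180, 164 and 164 normalized reads in KI1 to KI3 and 8.56, 92.6 and 183 in KD1 to KD3. Tgfbr3l had a site within 1 kb of a gene's start or end, chr8:4250669-4250911, at 208, 201 and 210 against 10.7, 99.97 and 187. In the defensin gene Defb40 the site chr8:18975435-18975761 had 59.7, 56.1 and 54.4 against 0, 25.9 and 57.7, at least 17.7-fold higher in GFI1-KI than in KD1. In each of these KD1 was lowest, KD2 was below all GFI1-KI libraries, and KD3 was near or above them.

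Gained sites showed the mirror image. Dctn6 encodes a dynactin subunit, and the site chr8:34099768-34099993 inside it had 0, 2.63 and 2.27 normalized reads in GFI1-KI, at or under the floor of 3 reads, and 77.0, 34.6 and 34.4 in KD1 to KD3. Micu3, a regulator of the mitochondrial calcium uniporter, had a site 14.1 kb away at chr8:40402904-40403470 with 13.5, 6.14 and 14.3 against 139, 102 and 80.9. In the sarcoglycan gene Sgcz, chr8:37788754-37789250 had 3.38, 4.38 and 1.51 against 61.0, 34.6 and 41.0. All GFI1-KD libraries were above all GFI1-KI libraries at these 3 sites, and KD1 was highest.

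Csmd1, a very large gene for a complement-control protein, held only 4 peaks, and 3 of them were gained in KD1. The largest gain, chr8:17323615-17323913, had 2.25, 1.75 and 0.755 normalized reads in GFI1-KI and 104.9, 23.4 and 4.44 in KD1 to KD3. KD3 there rested on 4 reads. Near Stxbp2, a gene needed for granule release, chr8:3645449-3645612 had 0, 5.26 and 2.27 against 56.7, 42.0 and 6.65. At both sites KD1 was highest, KD2 was next and KD3 lay just above the GFI1-KI range.

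**Figure D4:**
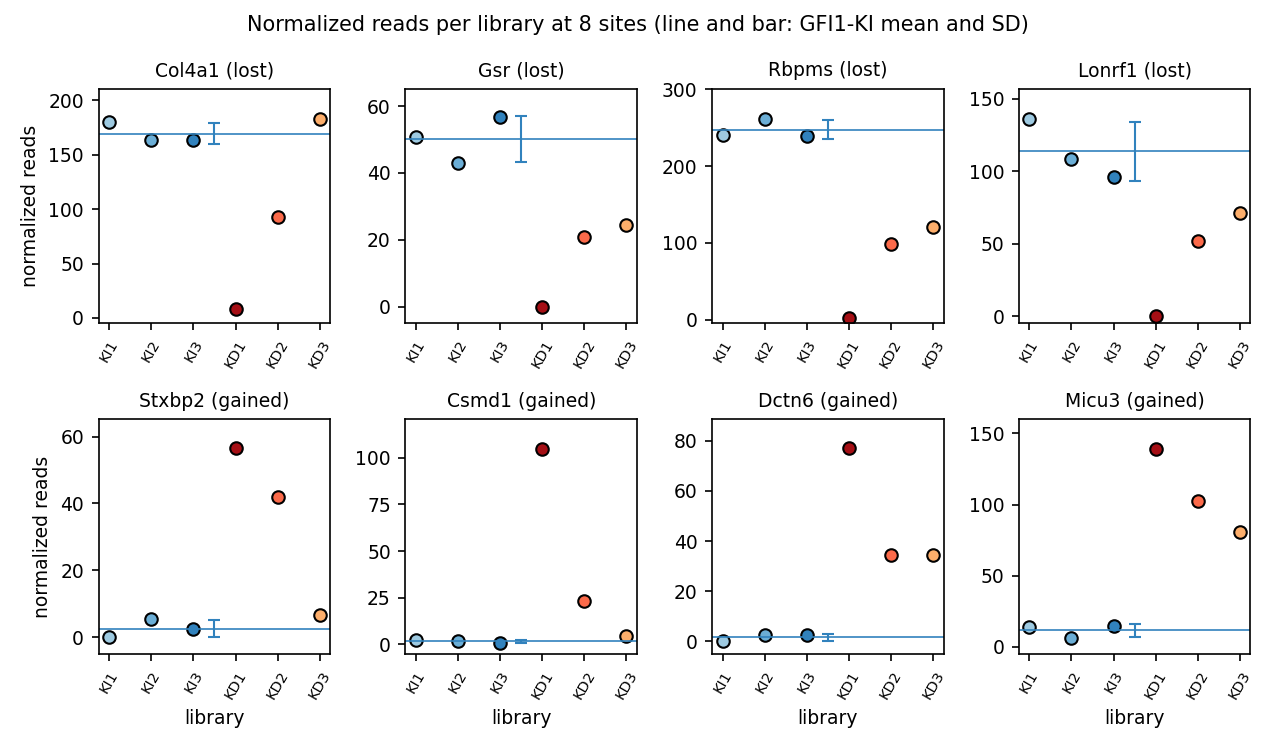
Normalized reads (vertical axis) in each library (horizontal axis) at 4 sites lost and 4 gained in KD1, with the GFI1-KI mean as a line and its SD (n = 3) as a bar. KD2 lies between KD1 and GFI1-KI in all 8 panels, and KD3 is at the GFI1-KI level for Col4a1, Stxbp2 and Csmd1.

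By gene, 248 protein-coding genes had a peak of the interval inside them or within 50 kb, and 63 of these had at least 1 peak past 4-fold in any GFI1-KD library. Such peaks numbered 161, of which 37 had no gene within that distance. No share over all tested peaks was taken for the 3 libraries together. In KD1, KD2 and KD3 alone, 0.368%, 0.534% and 0.358% of all tested peaks passed 4-fold. A gene with more peaks has more occasions to be counted, and several genes described here were named for such counts. Assignment is by distance alone. Col4a1 had 4 of 38 past 4-fold in opposite directions. Its peak chr8:11205408-11205836 had 50.7, 32.4 and 42.3 normalized reads in GFI1-KI and 268.6, 203.6 and 34.4 in KD1 to KD3, close to the lost site above. KD1 and KD2 were high and KD3 was within the GFI1-KI range. Mfhas1, a leucine-rich repeat gene, had 4 of 27 past 4-fold. Its gained site chr8:35658360-35658570 had 5.63, 7.01 and 6.04 against 76.0, 32.1 and 34.4.

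Nrg1 encodes ligands of the ERBB receptors. Of its 42 peaks limma called 18 higher and 1 lower (4.99% and 5.48% of all tested peaks) and did not call the others. Of the 42 peaks, 4 passed 4-fold, all higher. Nrg1, Rbpms and Msr1 were named for values of these same peaks, so their counts are descriptions. The peak chr8:31929034-31929525 had 20.3, 21.9 and 18.9 normalized reads in GFI1-KI (20.4 ± 1.52, SD, n = 3) and 181.9, 95.03 and 90.9 in KD1 to KD3. Every GFI1-KD library was more than 4-fold above every GFI1-KI library there. At chr8:31909103-31909416 the values were 14.6, 18.4 and 9.06 against 88.8, 79.0 and 28.8, and the genotypes again did not overlap.

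Msr1 encodes the class A scavenger receptor of macrophages. Its 9 peaks were nearly all higher in GFI1-KD, with 8 called higher by limma (4.99% of all tested peaks) and none lower. The strongest, chr8:39651686-39652081, lay 8.9 kb from the gene and had 29.3, 26.3 and 13.6 normalized reads in GFI1-KI (23.1 ± 8.33, SD, n = 3) and 184, 93.8 and 96.5 in KD1 to KD3. KD1 was 7.98-fold, KD2 4.07-fold and KD3 4.18-fold above the GFI1-KI mean. At a boundary of the gene (start and end were not told apart), chr8:39642591-39642824 had 11.3, 8.76 and 2.27 against 42.8, 19.7 and 32.2. All GFI1-KD libraries were higher at both, with KD1 highest. The promoter peak of Mertk, from the mature macrophage markers, had overlapping levels in both genotypes.

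The genes of the interval were also grouped by role, as a description beside the shares of all 2537 peaks (18.2% called by limma) and of all tested peaks (10.5%). Past 4-fold were 5.75%, 1.38% and 1.22% of the interval's peaks in KD1, KD2 and KD3, against 0.368%, 0.534% and 0.358% of all tested peaks. Innate immunity and inflammation had 132 peaks at 13 genes, of which 22 were called higher and 11 lower (25%), and 7 passed 4-fold in KD1, 0 in KD2 and 1 in KD3. DNA repair, replication and telomeres had 105 peaks at 8 genes, with 18 higher and 16 lower (32.4%) and 13, 2 and 3 past 4-fold. In that group Tnks, the gene of the telomere enzyme tankyrase, had 37.2, 35.1 and 28.7 normalized reads at chr8:34921171-34921436 in GFI1-KI against 196, 101 and 129, so that GFI1-KD lay above GFI1-KI without overlap.

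Growth factor and insulin signalling had 200 peaks with 25 called higher and 17 lower (21%), and 5, 5 and 1 past 4-fold. Nrg1 alone held 42 of these peaks, 18 of the higher calls and 1 of the lower. The ubiquitin group had 45 with 4 higher and 6 lower (22.2%). Cytoskeleton, matrix and adhesion had 304 with 31 higher and 21 lower (17.1%), and 16, 7 and 3 past 4-fold, with the largest number of peaks of the 9 groups. Chromatin and transcription had 230 with 17 higher and 23 lower (17.4%), and 11 of the peaks past 4-fold were in KD1, 1 in KD2 and 0 in KD3. Rbpms, counted here, held 45 of these peaks, 9 of the higher calls, 10 of the lower and 5 of those past 4-fold.

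Mitochondria and lipid metabolism had 97 peaks with 4 called higher and 13 lower (17.5%), and Gsr, counted here, held 6 of its 8 past 4-fold in KD1. Lysosome, vesicle and membrane traffic had 109 with 11 higher and 6 lower (15.6%). Coagulation and fibrinolysis had 33 with 3 higher and 2 lower (15.2%) and none past 4-fold in any library. Its member with the smallest p was in Gas6, a ligand of the TAM receptors, where chr8:13472136-13472682 had 136, 131 and 103 normalized reads against 52.4, 51.8 and 41.0. The median limma difference lay between -0.15 (mitochondria and lipid metabolism) and 0.05 (lysosome, vesicle and membrane traffic) in the 9 groups, against -0.06 over the interval and -0.05 over all tested peaks.

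Few of the peaks with strong differences in KD1 lay at gene ends. Of the 146 past 4-fold, 6 (4.11%) lay no more than 1 kb from a protein-coding gene's start or end, against 370 of the 2537 (14.6%) and 15.9% of all tested peaks. Inside a gene lay 41.8% of the 146 and 57.7% of the 2537. Their median length was 266.5 bp against 270 bp, and their median GFI1-KI level was 27.2 normalized reads against 43.2. That level is the reference of the difference, so peaks higher in KD1 tend to be low in it by choice. Whether low levels go along with large differences was not tested. The 6 at gene ends were those of Defb40, Tgfbr3l, Gsr, Cldn23, Dlc1 and Msr1.

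Single peaks show where the rule cut, and what lay just past 50 Mb was not examined further. The last peak inside, chr8:49946902-49947352, had 49.5, 58.7 and 56.6 normalized reads in GFI1-KI and 82.4, 39.5 and 79.8 in GFI1-KD. The first outside, chr8:50293611-50293834, had 19.1, 14.9 and 14.3 against 34.2, 27.2 and 23.3, so all GFI1-KD libraries were above all GFI1-KI libraries there. The lowest mean kept was 10.03 (chr8:33714967-33715199, near Gtf2e2) and the highest left out was 9.97 (chr8:11348113-11348281, in Col4a2). The last dense step of KD1 began at 48 Mb, with chr8:48042878-48043105 at 21.4, 28.9 and 27.9 against 0, 12.3 and 22.2.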

How the data were processed

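The authors deposited 1 table with a normalized signal (reads in a peak times 1 factor per library) for 182166 consensus peaks. Per the submitters' processing notes, the build was mm10 and the tools included MACS2, DiffBind, BWA, Picard, SAMtools, HOMER, ChIPseeker and Trim Galore. Their versions and roles were not given in the sources used here. Whether reads were shifted for Tn5 is not given either. Columns headed WT_1 to WT_3 were read as GFI1-KI 1 to 3, since the series title sets GFI1-low against wild type. The peaks carry a chromosome code in alphabetical order: as chromosome 8, code 18 put 16.3% of its peaks within 1 kb of a gene end, and as chromosome 18 1.44%. In every library 100% of values were whole multiples of a single step (tolerance 0.01 reads), so reads were recovered. A floor of 3 reads was 2.27 to 3.70 normalized reads.

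Of 2728 peaks of the interval, 2537 had a mean of at least 10. Differences are log2(value + 1). limma 3.58.1 (R 4.3.3) with a trended variance, without a replicate block, was fitted to all 170733 tested peaks, with Benjamini-Hochberg adjustment. edgeR 4.0.16 and DESeq2 1.42.0 ran on recovered reads as alternatives, beside other pseudocounts, filters, folds, scalings, a replicate block and each library left out. Peaks were assigned to the RefSeq protein-coding gene they overlapped or the nearest within 50 kb. Exons, introns and UTRs were not told apart. Promoter windows were found for 117 of the 248 genes. Members, gene lists and tests were chosen with earlier results of these data known.

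Peaks named are, per GFI1-KD library, up to 4 of the largest higher and lower past 4-fold with at least 50 normalized reads on the higher side (1 per gene, predicted genes left out), those of the 8 genes with most past 4-fold, of the first and last dense steps, of the 50 Mb limit, of the smallest p per list and of gene ends past 4-fold; some are given by counts only. The other sites named were chosen after their values were seen. Results for some further cell type markers are not reported here. Scripts were tested on simulated data. Figures were drawn with matplotlib 3.10.9 and tables made with pandas 2.3.3 and numpy 2.4.6 under Python 3.11.15.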

Additional observations from a re-analysis of the deposited data

How the results depend on the processing

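Of 107 alternative values, 86 stayed within 1.5 times the main count or 1 SD and 21 moved. The interval's limma count of 463 (18.2%, against 10.5% of all tested peaks) was 257 with a mean of at least 50 (22.5% against 15.3%), 277 by DESeq2 (10.9% against 6.31%) and 532 by edgeR (20.97% against 12.6%), and 248 to 496 with each library left out. It held 284 higher and 210 lower calls at equal totals, 280 and 212 with median-of-ratios scaling, 299 and 233 by edgeR, and 181 and 96 by DESeq2. Peaks past 4-fold in KD1, KD2 and KD3 (146, 35 and 31) numbered 97, 17 and 10 with a pseudocount of 5, 450, 283 and 205 at 2-fold, 72, 12 and 5 at 8-fold, and 36, 3 and 3 with a mean of at least 50. With each GFI1-KI library left out they ranged over 145 to 154, 33 to 37 and 29 to 36. Dense steps (24, 6 and 7) were 7, 3 and 2 at 2-fold, 10 for KD2 at 3 times the background, and 4 for KD3 with at least 2 peaks. Fewer peaks were tested with the higher mean. For the other settings the cause was not tested. With splits at 25 or 33 Mb, chosen after seeing the data, no lost site changes sides, so these say nothing on the lost sites. The KD3 medians at gained sites (9.21% and 49.98% of KD1) were 10.5% and 55.9% at 33 Mb. Low reads limit single sites, above all in KD1.

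The labels do not say whether replicate numbers pair the libraries. Same-numbered deviations correlated at -0.024, -0.038 and 0.056 across peaks, and those of KI2 and KD1 at 0.085. Such values cannot show whether libraries were paired. The fit with a replicate block called 508 peaks of the interval (20.02%, against 11.1% of all tested peaks), 247 of them higher and 261 lower.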

Other observations

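A few peaks of the interval differed most in KD2 or KD3. Inside Cul4a, which encodes a cullin scaffold of ubiquitin ligases, chr8:13122906-13123407 had 40.5, 99.9 and 70.2 normalized reads in KI1 to KI3 and 54.6, 12.3 and 21.1 in KD1 to KD3, so KD1 lay within the GFI1-KI range and KD2 was lowest. The first peak of the interval, chr8:3152705-3152924 in the insulin receptor gene Insr, had 13.5, 21.04 and 19.6 against 8.56, 3.70 and 9.98, with KD2 at the floor of 3 reads. Near Fam155a, chr8:9810968-9811576 had 10.1, 10.5 and 30.96 against 63.1, 58.0 and 109.8, with KD3 highest. Some differences were alike in the 3 GFI1-KD libraries. In Col4a2, the partner of Col4a1, chr8:11356799-11357195 had 40.5, 70.1 and 59.7 against 7.49, 8.64 and 13.3. Near Ppp1r3b, a glycogen-targeting phosphatase subunit gene, chr8:35403441-35403721 had 41.7, 72.7 and 63.4 against 11.8, 18.5 and 13.3. The genotypes overlapped at the Cul4a peak and not at the others named here.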
